A study of Mus musculus with 6 samples.

Results

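The mouse genes for semaphorins, plexins and neuropilins were followed in sorted osteoblasts of the skull. They comprise 20 semaphorins, 9 plexins and 2 neuropilins, 31 of the 27179 gene IDs in the deposited count table, and were found in it by symbol. The family was chosen from the readout, because Sema7a stood out between the genotypes in these same libraries. The same contrast chose the genes, so their differences between genotypes, and any threshold they pass, are given as a description and not as evidence.

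The RNA was taken from skull bones (calvaria) of C57Bl/6J pups that were 5 days old. After collagenase digestion, cells with a GFP transgene under Osteocalcin-Cre control were sorted, and the labels state that both genotypes were handled alike. The 3 libraries of the conditional knockout of Cdc73 (also named Hrpt2, and titled Flox) were compared with 3 wildtype libraries. Osteocalcin-Cre acts in mature cells of the osteoblast lineage, so Cdc73 would remain intact in cells without Cre activity that entered the gate. Whether cells of other types in the sorted samples had such activity was not tested. Whether each library came from its own animal is not stated, and further alleles of the wildtype pups are not given in the labels.

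Semaphorins are secreted or membrane-bound guidance cues, and plexins are their main receptors. Plexins carry a GTPase-activating domain inside the cell that acts on small GTPases of the Ras and Rap group, and so alter adhesion and the actin skeleton. Neuropilins have a short tail and join plexins as co-receptors, chiefly for the secreted class 3 semaphorins. In bone, Sema3a from osteoblast-lineage cells restrains bone resorption through Nrp1. Sema4d from osteoclasts restrains osteoblasts through Plxnb1, and Plxna1 promotes osteoclast formation with Sema6d as a ligand.

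The promoters of Sema7a, Sema3c and Plxna3 are shown because these were the members of smallest unadjusted p in class 7, in class 3 and among the plexins. Each line gives 250 bases before a start listed in RefSeq's promoter table, on the plus strand of mm10 (GRCm38), read 5′ to 3′. For Sema7a and Plxna3 that start lies inside the gene's full annotated span, so the window does too. Capitals mark the GC box GGGCGG on either strand.
Sema7a, chr9:57939862-57940111: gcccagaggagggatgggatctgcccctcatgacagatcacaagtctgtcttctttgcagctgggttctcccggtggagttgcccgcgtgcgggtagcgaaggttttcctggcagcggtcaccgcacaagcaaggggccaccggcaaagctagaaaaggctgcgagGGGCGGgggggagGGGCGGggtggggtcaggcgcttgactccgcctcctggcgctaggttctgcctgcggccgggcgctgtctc
Sema3c, chr5:17574566-17574815: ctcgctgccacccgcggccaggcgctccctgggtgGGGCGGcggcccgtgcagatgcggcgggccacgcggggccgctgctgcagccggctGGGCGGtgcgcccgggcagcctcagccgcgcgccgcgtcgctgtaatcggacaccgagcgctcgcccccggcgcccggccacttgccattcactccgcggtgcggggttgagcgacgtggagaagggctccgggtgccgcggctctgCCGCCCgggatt
Plxna3, chrX:74328816-74329065: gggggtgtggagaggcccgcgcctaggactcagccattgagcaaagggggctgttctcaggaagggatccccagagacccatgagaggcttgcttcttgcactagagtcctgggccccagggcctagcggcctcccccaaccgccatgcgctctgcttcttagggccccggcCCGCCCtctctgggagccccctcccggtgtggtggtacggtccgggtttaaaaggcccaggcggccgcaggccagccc

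GC boxes numbered 2 in the Sema7a window, 3 in that of Sema3c and 1 in that of Plxna3. The RefSeq promoter table held 37 entries for 26 of the 31 members, and 27 of these entries (73.0%) contained GGGCGG, against 32.7% of all 32851 promoters. The members' promoters were also richer in G and C, with a median of 64.0% against 52.4%, a property the GC box shares. TATAAA, the core of the TATA box, was found in 0 of the 37 windows and in 12.4% of all promoters. TGTGGT, the core of the site bound by Runx factors, stood in 13.5% of the members' windows and 14.0% of all, and the AP-1 site TGANTCA in 8.11% and 6.75%. Both strands were searched for each motif, and a match describes letters in the window, not binding.

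The 6 libraries held 13591925 to 20993962 counts. Osteoblast markers summed to 233123 to 342869 CPM (counts relative to the TMM-scaled library total) in knockout and 277215 to 300202 in wildtype, so the labelled cell type was present in every library. Col1a1 made up most of these sums. Of the 10 osteoblast markers, 9 had a lower mean estimate in knockout, with a median log2 fold change of -0.40. At an unadjusted p under 0.05 (edgeR), 3 were lower, beside 14.6% of all genes in either direction. Only the osteoblast transcription factor Sp7 (1 of 10) lay below wildtype in every knockout library. Over all genes, 20.4% did not overlap in either direction. Wildtype 1 correlated better with the knockout libraries across genes (Pearson's r of 0.973 to 0.983) than with wildtype 2 and 3 (0.94 and 0.945). Wildtype 2 and 3 correlated less well still with each other (0.925), so wildtype 1 was not the odd library of a close group. They had 14608 and 15712 gene IDs with a count, against 17068 to 18024 in the other libraries. Values without wildtype 1 are given for the members it moves across an unadjusted p of 0.05, and are not taken as the better ones. Cdc73 measured 14.0, 14.7 and 14.4 CPM in knockout 1, 2 and 3 and 20.5, 12.8 and 21.7 CPM in wildtype 1, 2 and 3, a log2 fold change of -0.36 ± 0.22 (edgeR quasi-likelihood test, adjusted p = 0.428). Wildtype 2 lay below all 3 libraries labelled knockout, so Cdc73 did not check every label, and knockout and wildtype below mean the libraries so labelled.

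Levels of different genes were compared per length, as CPM per kb of exon, in the 3 wildtype libraries. Plxnb2, a plexin for class 4 semaphorins, stood at 34.8 ± 8.75 (SD, n = 3). Sema3b, a secreted class 3 semaphorin, stood at 31.3 ± 5.99 and the co-receptor Nrp2 at 28.6 ± 5.80. The wildtype ranges of these 3 overlapped, and all lay above Sema3d at 14.8 ± 0.505, a further secreted member. Next came the receptors Plxna1 at 11.7 ± 2.63 and Plxnd1 at 9.91 ± 1.80.

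Below these levels the order was mostly unresolved. Neighbours in the order overlapped in their wildtype ranges at 26 of 30 steps, with gaps after Nrp2, Sema3d, Plxnd1 and Sema4f. Sema7a stood at 4.78 ± 0.293 CPM per kb in wildtype, rank 10 of 31, and at 10.2 ± 1.96 in knockout, rank 7. Sema3c stood at 3.41 ± 0.853 in wildtype and 6.57 ± 2.43 in knockout, ranks 14 and 9. In all, 22 members reached a wildtype mean of 1 CPM per kb, and 6 stayed under 0.5 (Plxna4, Sema3g, Sema5b, Sema4f, Sema3e and Plxnb3). With the length of the longest transcript in place of all exons, Nrp2 led at 50.4 ± 10.2, ahead of Sema3b at 43.6 ± 8.33 and Plxnb2 at 41.4 ± 10.4, and Nrp1 moved from rank 11 to rank 7.

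**Figure D1:**
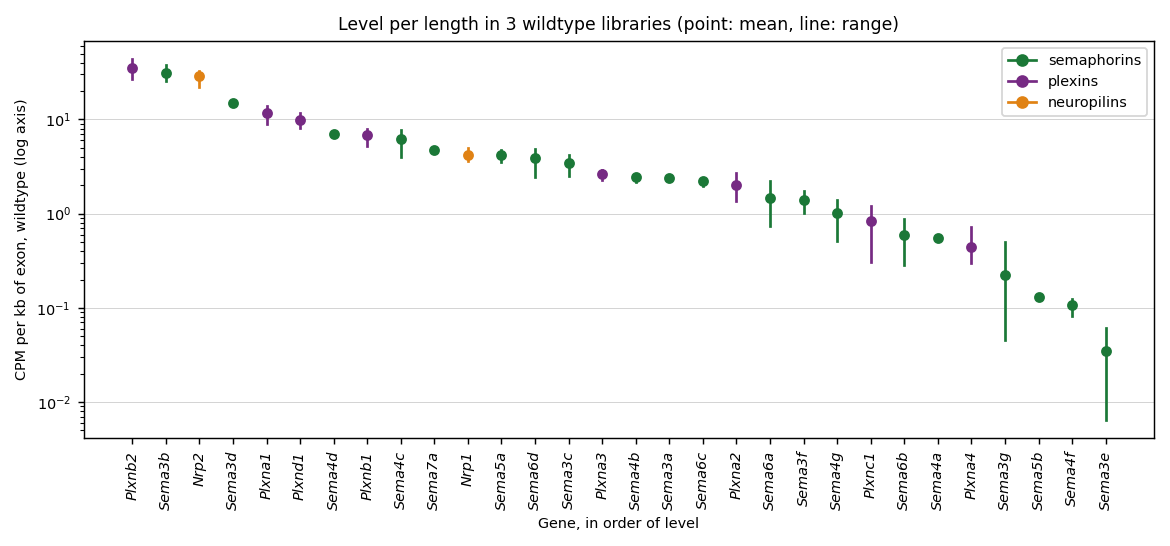
Level of each gene in wildtype, as CPM per kb of exon on a log axis, in order of level. Points are means and lines the range over 3 libraries, with Plxnb3 left out because 2 wildtype libraries had 0 counts. Plxnb2, Sema3b and Nrp2 overlap at the top and lie above all other members.

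Of the 31 members, 29 passed the filter on low counts. Their median log2 fold change of knockout over wildtype was 0.34, with 24 positive and 5 negative values from -0.29 to 1.34. The positive values include Sema4f, the highest, and Sema3g (0.79), which met the filter's cut in 3 knockout but only 2 and 1 wildtype libraries. They also include Sema5b (0.14), which met it in 2 knockout and 3 wildtype libraries. The median, range and count of signs carry that limit. Over all 13505 genes tested the median was -0.01 and 49.3% were positive. When libraries were scaled by total counts only, these medians became 0.14 for the members, with 19 of 29 positive, and -0.21 for all genes. In bulk samples, fewer cells of a type and less RNA per cell cannot be told apart.

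No member passed edgeR's quasi-likelihood test after Benjamini-Hochberg adjustment, nor did any of the 13505 genes (0 called, 0%). At an unadjusted p under 0.05 stood 5 members (17.2% of those tested), namely Sema7a, Sema3c, Sema4a, Sema4f and Plxna3, all higher in knockout. Over all genes this share was 14.6% in either direction and 8.26% for higher levels. In 7 members the groups did not overlap, with knockout above in all 7. That is 24.1% of those tested, beside 10.6% of all genes with knockout above and 20.4% in either direction. Since the family was chosen on this contrast, these shares are printed beside each other and nothing is read from them. The 5 members became 13 without wildtype 1, where 28.7% of all genes had such a p. They became 3 without knockout 1 (6.89% of all genes), 2 without knockout 2 (5.57%) and 3 when only wildtype 1 served as control (5.14%), so the number over all genes moved the same way. With library size alone as the scale (21.9% of all genes), 5 members again had an unadjusted p under 0.05, 2 higher (Sema7a and Sema3c) and 3 lower (Sema3a, Sema4d and Plxnb1).

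**Figure D2:**
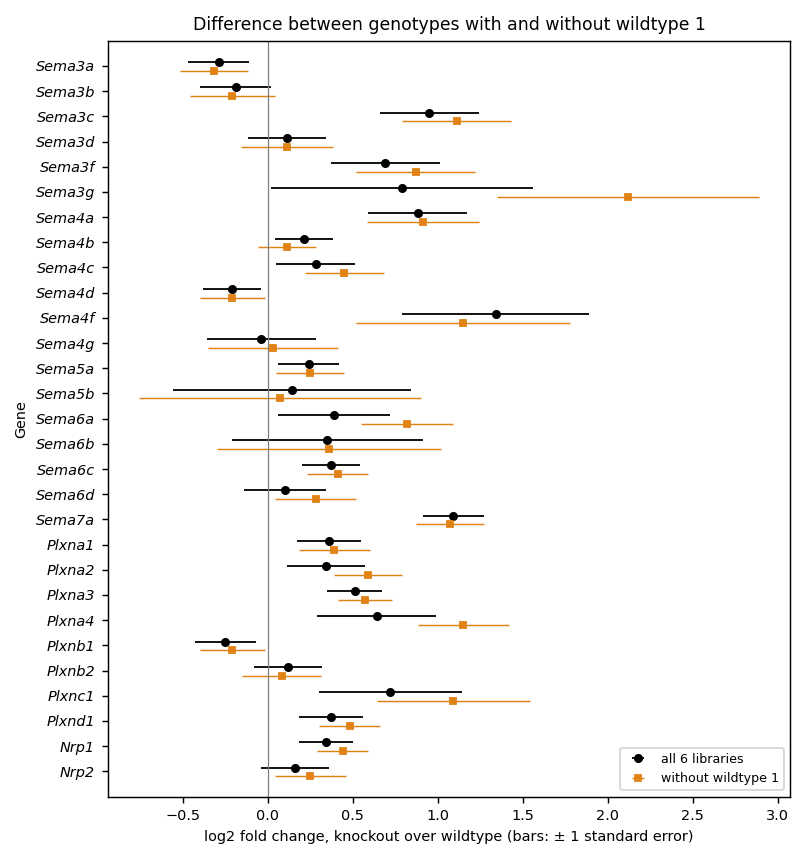
Log2 fold change of knockout over wildtype for the 29 members tested, with bars of 1 standard error, for all 6 libraries and without wildtype 1. Sema7a moves from 1.09 to 1.07 without wildtype 1, while Sema3g moves from 0.79 to 2.12 and Plxna4 from 0.64 to 1.15.

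Sema7a (gene ID 20361, chromosome 9, 57939596 to 57962865 in mm10, plus strand) is the only class 7 semaphorin. It is held on the membrane by a lipid anchor and binds Plxnc1 and integrins with the beta1 chain. It measured 40.7, 28.1 and 31.8 CPM in knockout 1, 2 and 3 and 15.9, 14.7 and 16.7 CPM in wildtype 1, 2 and 3. The groups did not overlap, and wildtype 1 lay with the other wildtype libraries. Sema7a thus averaged 33.5 ± 6.47 CPM against 15.8 ± 0.965 CPM (SD over 3 libraries), and its log2 fold change was 1.09 ± 0.18. Over the 17 alternative settings it ran from 0.89 to 1.20, and it was 1.07 both without wildtype 1 and with wildtype 1 alone as control.

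Among the members, only Sema7a passed an adjusted p of 0.05 in any setting run, which it did in 4 of the 17 alternatives. Among these were edgeR without a filter on low counts, which called 24 of 19771 genes (0.121%), DESeq2, which called 248 of 12195 genes (2.03%), and edgeR without wildtype 1, which called 409 of 13823 genes (2.96%). These calls describe the values by which the family was chosen. No exon of another annotated gene overlapped those of Sema7a, while 7 other members had such an overlap.

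The other side of the Sema7a pair was less steady. Plxnc1, its plexin, measured 12, 14.1 and 8.56 CPM in knockout and 10.1, 8.28 and 2.57 CPM in wildtype. The groups overlapped, with wildtype 3 far below the rest, and the log2 fold change was 0.72 ± 0.42. It was 1.09 without wildtype 1 and 0.19 against wildtype 1 alone. Itgb1, the integrin beta1 chain, measured 625 ± 44.3 CPM in knockout and 605 ± 16.4 in wildtype, a log2 fold change of 0.05 ± 0.16. Itga1, an alpha chain that pairs with it, gave -0.09 ± 0.36, with wildtype 2 at 5.91 CPM against 11.9 to 19.6 in the other 5 libraries.

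Class 3 semaphorins are secreted ligands, and 6 of 7 were tested, with 4 positive and 2 negative values around a median of 0.40. Sema3c (chromosome 5, 17574816 to 17730268, plus strand), a ligand known from heart outflow tract development, measured 48.3, 63.5 and 29.0 CPM in knockout 1, 2 and 3. In wildtype 1, 2 and 3 it measured 30.2, 18.0 and 24.8 CPM. Knockout 3 lay below wildtype 1, so the groups overlapped. The means of Sema3c were 46.9 ± 17.3 and 24.3 ± 6.09 CPM, and its log2 fold change was 0.95 ± 0.29. It was 1.11 without wildtype 1 and 0.63 against that library alone.

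Sema3b, highest of the class per length, measured 115, 112 and 167 CPM in knockout and 147, 179 and 122 CPM in wildtype, a log2 fold change of -0.19 ± 0.21. The groups overlapped in part, with knockout 1 and 2 below all wildtype libraries and knockout 3 among them. Sema3a, the ligand linked to protection of bone, averaged 27.2 ± 5.80 CPM in knockout and 33.2 ± 1.33 in wildtype. Its log2 fold change of -0.29 ± 0.18 was the most negative of the family, and knockout 3 at 33.8 CPM lay within the wildtype libraries. Sema3d averaged 137 ± 48.1 and 128 ± 4.34 CPM (0.11 ± 0.23), with knockout 3 at 193 CPM far above the rest. Sema3f, which signals mainly through Nrp2, averaged 11.5 ± 4.51 and 7.17 ± 1.82 CPM (0.69 ± 0.32, and 0.87 without wildtype 1). Sema3g, known from endothelium, rested on wildtype 1, with a log2 fold change of 0.79 ± 0.77 that became 2.12 without that library and -0.30 against it alone. It met the filter's cut in 3 knockout libraries and 1 wildtype library. That library was wildtype 1, so the place of Sema3g among the 13 members without wildtype 1 carries that limit. Sema3e, a direct ligand of Plxnd1, failed the filter at 1.02 ± 0.738 and 0.325 ± 0.255 CPM.

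Class 4 semaphorins span the membrane, and all 6 were tested, with 4 positive and 2 negative values around a median of 0.25. Sema4a, best known from immune cells and the retina, measured 6.06, 6.67 and 3.95 CPM in knockout and 3.19, 2.92 and 2.93 CPM in wildtype. The groups did not overlap, and the log2 fold change was 0.88 ± 0.29. Sema4f was near the limit of detection, at 2.04, 1.39 and 0.905 CPM in knockout and 0.437, 0.626 and 0.657 CPM in wildtype. The groups did not overlap (1.34 ± 0.55), but these levels rest on 9 to 34 counts per library. Sema4f met the filter's cut of 0.655 CPM in 3 knockout and 2 wildtype libraries, so wildtype levels alone would not have passed it, and its place among the 5 and 7 members above carries that limit. Its log2 fold change was 1.15 without wildtype 1, no longer under an unadjusted p of 0.05.

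Sema4d, the ligand of Plxnb1 and highest of class 4 per length, measured 42.7, 39.9 and 55.6 CPM in knockout and 55.3, 49.6 and 55.3 CPM in wildtype. Knockout 3 was the highest of all, and the log2 fold change was -0.21 ± 0.17. The remaining class 4 genes overlapped between groups, with log2 fold changes of 0.21 ± 0.17 for Sema4b, 0.28 ± 0.23 for Sema4c and -0.04 ± 0.32 for Sema4g.

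Classes 5 and 6 are also transmembrane. The 2 class 5 and 4 class 6 genes were all tested, and all 6 log2 fold changes were positive, from 0.10 to 0.39. Sema5a, which carries thrombospondin repeats, measured 85.1, 84.6 and 110.5 CPM in knockout and 81.7, 66.2 and 88.7 CPM in wildtype, with overlap and a log2 fold change of 0.24 ± 0.18. Sema6c was the only gene of these classes without overlap. It measured 16.5, 18.0 and 16.2 CPM in knockout and 14.0, 13.4 and 11.8 CPM in wildtype, a log2 fold change of 0.37 ± 0.17 (0.41 without wildtype 1). Sema6d, a ligand of Plxna1, measured 40.8, 43.6 and 47.9 CPM in knockout and 51.5, 26.0 and 45.4 CPM in wildtype. Wildtype 1 was its highest library and wildtype 2 its lowest, and the log2 fold change of 0.10 ± 0.24 was -0.11 with library size alone as the scale. Sema6a gave 0.39 ± 0.33 with all libraries, 0.82 without wildtype 1 and -0.21 against wildtype 1 alone. The low genes Sema5b (0.14 ± 0.70) and Sema6b (0.35 ± 0.56) lay within 1 standard error of 0.

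**Figure D3:**
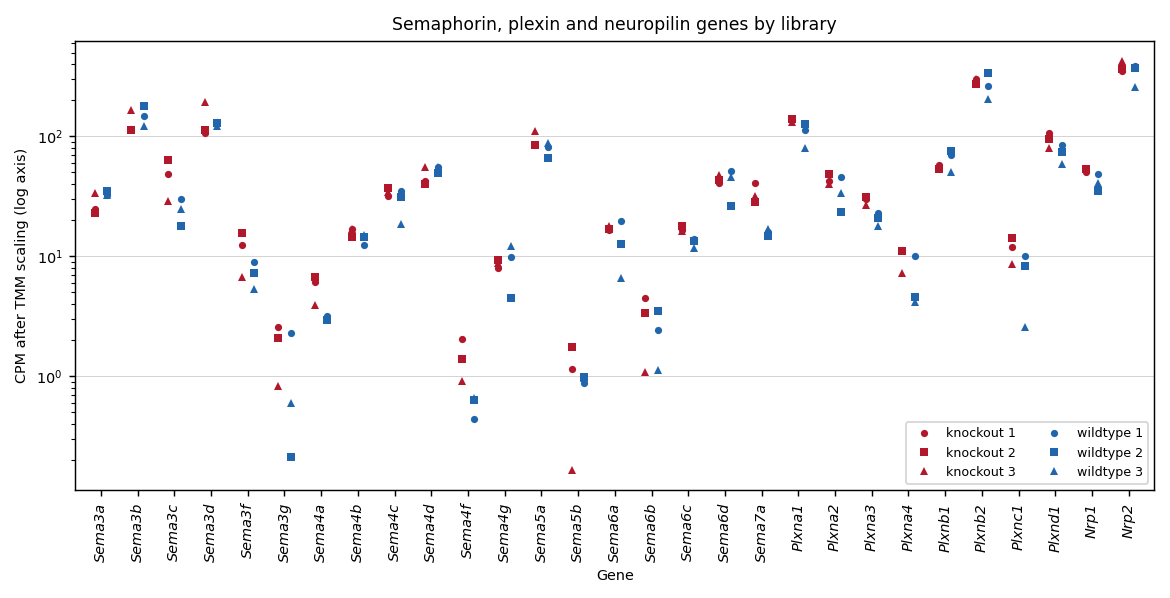
CPM after scaling for each of the 29 members tested, on a log axis, with knockout in red, wildtype in blue and 1 symbol per replicate number. Sema4a, Sema4f, Sema6c, Sema7a, Plxna1, Plxna3 and Nrp1 are the genes whose knockout points all lie above the wildtype points.

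Among the receptors, 8 of 9 plexins were tested, with 7 positive values and 1 negative around a median of 0.37. Plxna3 (chromosome X, 74328290 to 74344689, plus strand), a partner of neuropilins for class 3 ligands, measured 30.0, 31 and 26.7 CPM in knockout and 22.8, 21.0 and 17.9 CPM in wildtype. The groups did not overlap, with means of 29.2 ± 2.23 and 20.6 ± 2.51 CPM and a log2 fold change of 0.51 ± 0.16. It was 0.57 without wildtype 1 and 0.35 against wildtype 1 alone. Plxna1, the receptor of Sema6d in osteoclasts, measured 137, 140.1 and 133 CPM in knockout and 112, 127 and 80.0 CPM in wildtype. These groups did not overlap either, although knockout 3 and wildtype 2 lay close, and the log2 fold change was 0.36 ± 0.19. Plxna2 gave 0.34 ± 0.23 and Plxna4 0.64 ± 0.35, both with overlap. Without wildtype 1 these were 0.59 and 1.15, and against wildtype 1 alone -0.09 and -0.03.

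Plxnb2 measured 303, 271 and 301 CPM in knockout and 262, 339.8 and 205 CPM in wildtype. The wildtype libraries spanned the knockout libraries, and the log2 fold change was 0.12 ± 0.20. Plxnb1, the receptor of Sema4d, was the only plexin with a negative value, at 54.8 ± 2.37 against 65.1 ± 13.1 CPM (-0.25 ± 0.18). Plxnd1, a vascular receptor of Sema3e, measured 106, 95.1 and 79.7 CPM in knockout and 84.9, 73.6 and 58.7 CPM in wildtype, with overlap and a log2 fold change of 0.37 ± 0.19 (0.48 without wildtype 1). Plxnb3 failed the filter. It had 0 counts in knockout 3, wildtype 2 and wildtype 3, which allows up to 0.247, 0.209 and 0.179 CPM by counting error alone (3 counts).

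Both neuropilins were tested. Nrp1, the co-receptor of Sema3a, measured 50.0, 53.2 and 53.6 CPM in knockout and 48.2, 35.2 and 40.7 CPM in wildtype. The groups did not overlap, but wildtype 1 came close to knockout 1. The log2 fold change of 0.34 ± 0.16 was 0.44 without wildtype 1 and 0.11 against it alone. Nrp2, the more abundant of the pair, measured 350.1, 366 and 424 CPM in knockout and 385, 372 and 260.3 CPM in wildtype, with overlap and a log2 fold change of 0.16 ± 0.20.

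Other genes of the pathway came from a textbook list of 48 co-receptors and effectors, of which 45 were tested. Their median log2 fold change was 0.02, with 25 positive and 20 negative values. At an unadjusted p under 0.05 stood 10 genes (22.2%, against 14.6% of all genes), 6 higher and 4 lower in knockout, and none passed the adjustment. Without wildtype 1 the number was 11 (28.7% of all genes), without knockout 1 and without knockout 2 it was 5 (6.89% and 5.57%), and with wildtype 1 alone as control 4 (5.14%). In 7 of them (15.6%, against 20.4%) the groups did not overlap, 3 with knockout above and 4 below.

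Rnd1, which binds the cytoplasmic part of plexins, had the smallest p of the listed partners. It measured 24.7, 19.8 and 17.2 CPM in knockout and 8.44, 6.26 and 3.16 CPM in wildtype, clear of each other in every library. Its log2 fold change was 1.78 ± 0.32 (edgeR quasi-likelihood test, adjusted p = 0.273), 2.12 without wildtype 1 and 1.28 against wildtype 1 alone. Flt1, a VEGF receptor of endothelial cells whose ligands also bind neuropilins, averaged 14.2 ± 3.38 and 4.37 ± 3.98 CPM, a log2 fold change of 1.66 ± 0.52 (edgeR, adjusted p = 0.281). Wildtype 1 at 8.96 CPM carried most of its wildtype mean, and the value was 2.75 without that library. L1cam, an adhesion molecule of the Nrp1 complex in neurons, was low at 1.43 ± 0.202 and 0.290 ± 0.200 CPM, a log2 fold change of 2.27 ± 0.68 (edgeR, adjusted p = 0.277). It passed the filter on low counts through the knockout libraries alone. Its place among the 10 partners at an unadjusted p under 0.05 and the 3 with knockout above carries that limit.

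The 4 partners below in every knockout library were Cdk5, Chl1, Limk1 and Gipc1. Cdk5, a kinase that acts on collapsin response mediators in Sema3a signalling, averaged 15.9 ± 1.64 CPM in knockout and 23.5 ± 4.51 in wildtype, a log2 fold change of -0.56 ± 0.19 (edgeR, adjusted p = 0.291). Limk1, which phosphorylates the actin-severing protein cofilin, averaged 18.2 ± 1.82 and 24.5 ± 4.35 CPM (-0.43 ± 0.18). Gipc1, an adaptor that binds the tail of Nrp1, averaged 22.1 ± 1.21 and 28.6 ± 4.03 CPM (-0.37 ± 0.17). Chl1, an adhesion molecule related to L1cam, was low at 1.51 ± 0.627 and 3.22 ± 0.686 CPM (-1.10 ± 0.42).

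Markers of several other cell types had higher means in knockout, while most osteoblast markers had lower means. This did not hold library by library, as the osteoblast sum was highest of all in knockout 3 (342869 CPM). Chondrocyte markers summed to 9595 to 21709 CPM in knockout and 2142 to 7749 in wildtype, and all 8 lay above in every knockout library, with a median log2 fold change of 1.84. Endothelial markers summed to 129.9 to 229 CPM against 45.2 to 133, with 4 of 10 clear of overlap and a median of 1.29. Macrophage markers summed to 146 to 348 CPM against 87.7 to 127, with 5 of 10 clear of overlap and a median of 1.19. Neuron and glia markers summed to 27.4 to 51.4 CPM against 18.6 to 26.1, with 1 of 9 clear of overlap. Neutrophil markers summed to 53.7 to 185 against 19.6 to 52.4 CPM. Beside these counts of markers, 10.6% of all genes tested lay above wildtype in every knockout library.

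Osteoclast markers overlapped in their sums (529 to 642 against 414 to 599 CPM), although 6 of 8 lay above in every knockout library. Endothelial, erythroid, skeletal muscle, pericyte, and T and B cell sums overlapped as well. Of the skeletal muscle markers 2 of 8, and of the pericyte markers 2 of 6, had higher means in knockout. The median log2 fold changes of those tested were -0.62 and -0.12. No marker was at 0 in all 6 libraries. Semaphorins, plexins and neuropilins are also made by endothelial cells, cartilage and macrophages. The part of these cells in the levels of Sema7a, Sema3c, Plxna3 and the other members was not tested.

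**Figure D4:**
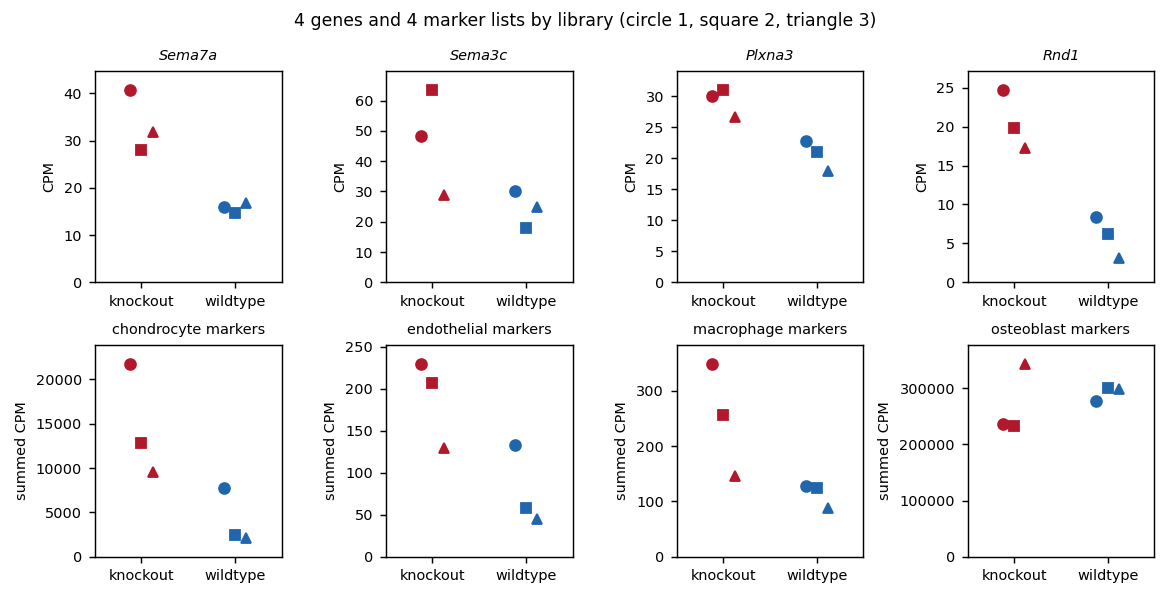
CPM of Sema7a, Sema3c, Plxna3 and Rnd1, and summed CPM of 4 marker lists, in each of the 3 knockout and 3 wildtype libraries, on axes from 0. Sema7a is at 14.7 to 16.7 CPM in wildtype and at 40.7, 28.1 and 31.8 CPM in knockout 1, 2 and 3. The chondrocyte sum is 7749 CPM in wildtype 1, 2142 to 2421 in wildtype 2 and 3, and 21709, 12869 and 9595 in knockout 1, 2 and 3. Both are highest in knockout 1, as are the endothelial (229 CPM) and macrophage (348 CPM) sums. The osteoblast sum is highest in knockout 3 (342869 CPM). A link between Sema7a and any of these lists was not tested.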

How the data were processed

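The table the authors deposited holds unnormalized whole-number read counts per gene for 6 libraries. Per the submitters' processing notes, CASAVA 1.7, Subread and featureCounts were used with mm10. Neither strand use in counting nor separate animals are stated, so reads of overlapping genes cannot be told apart and p-values measure only the spread between these samples. RefSeq's gene table named 25275 of 27179 IDs and GENCODE M21 a further 17. Exon lengths came from GENCODE M21, and promoters from RefSeq GRCm38.p6. The members and lists were chosen with earlier results of these data known.

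Counts were tested with edgeR 4.0.16 in R 4.3.3 (filterByExpr defaults, TMM factors of 0.813 to 1.09, two-sided quasi-likelihood test, all 6 libraries, Benjamini-Hochberg over 13505 genes, threshold 0.05). The biological coefficient of variation was 24.2%. All pairs of libraries differed by more than sampling noise (chi-square per degree of freedom 18.3 to 139). CPM are TMM-scaled, and fold changes are log2 ± standard error. The fit was also run on simulated counts with the same spread for every gene, smaller than in these data. That run does not show how the fit performs here. Values per library are given for the member highest per length in each class, and for tested members without overlap or with an unadjusted p under 0.05. Partners named were those with both, plus Itgb1 and Itga1. The alternatives were DESeq2 1.42.0 and its size factors, upper-quartile factors, library size alone, no filter, a stricter one (1 CPM or more in 3 libraries or more), limma 3.58.1 (voom, with and without quality weights), a block for the replicate number, named IDs only, wildtype 1 as the only control (assumed to vary like the knockout libraries) and leaving out each library. Counting error is the only error in the limits given for 0 counts.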

Additional observations from a re-analysis of the deposited data

How the results depend on the processing

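For 38 named genes (29 members and 9 partners), 17 alternatives gave 645 values, of which 34, in 14 genes, changed sign. None of the 38 passed an adjusted p of 0.05 with all libraries in edgeR, and 11 of the values did (Sema7a, Rnd1 and Flt1). At an unadjusted p of 0.05, 23 values in 14 genes came under it and 39 values in 8 genes, Gipc1, Sema4f, Limk1, Chl1, Plxna3, Sema4a, Cdk5 and Sema3c, rose over it. Over all genes the number called was 24 without a filter, 248 with DESeq2 and 0 to 409 on leaving out 1 library, against 0. The members at an unadjusted p under 0.05 numbered 3 against wildtype 1 alone and 2 to 13 on leaving out 1 library, and the partners 4 and 5 to 11. The members' median was 0.14 with library size alone and 0.15 against wildtype 1 alone. In these settings the median of all genes was -0.21 and 0.01. Signs changed as follows, and the cause was not tested. With library size alone the log2 fold change was -0.13 for Sema3d, -0.01 for Sema5b, -0.11 for Sema6d, -0.08 for Plxnb2, -0.05 for Nrp2 and -0.16 for Itgb1. Against wildtype 1 alone it was -0.30 for Sema3g, -0.04 for Sema4c, -0.21 for Sema6a, -0.23 for Sema6d, -0.09 for Plxna2, -0.03 for Plxna4 and -0.03 for Nrp2. With voom it was 0.04 for Sema4g, -0.21 for Sema5b and 0.03 for Itga1, and with quality weights -0.05 for Sema3d, 0.09 for Sema4g and 0.09 for Itga1. Leaving out 1 library gave -0.23 to 0.25 for Sema3d, -0.37 to 0.24 for Sema4g, -0.47 to 0.60 for Sema5b, -0.08 to 0.72 for Sema6b, -0.15 to 0.28 for Sema6d, -0.05 to 0.31 for Plxnb2, -0.01 to 0.25 for Nrp2, -0.47 to 0.19 for Itga1 and -0.03 to 0.07 for Itgb1.

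With the replicate number as a replicate block, 236 genes (1.75%) were called, Sema7a among them, and Sema4g stood at 0.06, Sema5b at -0.14 and Itga1 at 0.05. Deviations of same-numbered libraries correlated at 0.115, -0.0743 and 0.222. Knockout 1 and knockout 3 correlated best with the wildtype library of their own number, while knockout 2 correlated best with wildtype 1 (0.347). The labels state no covariate, so the numbers were not taken as pairs, and these correlations do not settle whether they are. Depth limits the low genes. Sema3e and Plxnb3 did not pass the filter on low counts, and Sema3g, Sema4f, Sema5b and Sema6b averaged under 3 CPM in both groups.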

Other observations

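Ratios of counts within a library need no scaling between libraries. Those below use the contrast that chose the family, so they are a description and not evidence. Sema7a (log2 fold change 1.09) and Plxna3 (0.51), with positive values, were set over Sema3a (-0.29), Sema4d (-0.21) and Plxnb1 (-0.25), with negative values. Separation of such ratios thus repeats those values, and no share over all genes was computed for it. The counts of Sema7a over those of Sema4d, both membrane-bound ligands, were 0.954, 0.704 and 0.572 in knockout 1, 2 and 3. In wildtype 1, 2 and 3 they were 0.288, 0.297 and 0.301. Over the secreted ligand Sema3a, the knockout ratios were 1.64, 1.22 and 0.942 and the wildtype ratios 0.491, 0.425 and 0.514. The groups did not overlap in either ratio. The receptors Plxna3 over Plxnb1 gave 0.522, 0.585 and 0.495 in the knockout libraries against 0.327, 0.279 and 0.355, again without overlap. Sema3c over Sema3a overlapped, with knockout 3 at 0.856 and wildtype 1 at 0.931. Sema7a over its plexin Plxnc1 overlapped too, at 1.99 to 3.72 in knockout and up to 6.49 in wildtype 3.

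Of the 24 members at a mean of at least 5 CPM, 16 varied more among wildtype than among knockout libraries, with median coefficients of variation of 20.1% and 10.2%. Of all 9683 genes at that level 7625 did so, with medians of 20.0% and 10.8%. The level in wildtype 1 was nearer to the knockout mean than to that of wildtype 2 and 3 for 12 of 29 members (41.4%) and for 68.0% of all genes tested. Sema7a, at 15.9 CPM in wildtype 1, was not among the 12, which its choice for a difference between the genotypes makes likely. These shares are a description and not evidence.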
